A study of Mus musculus with 24 samples.

Results

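Bmi1, Hopx, Tert, Lrig1 and Mex3a are mouse genes that have been linked to reserve stem cells of the intestinal crypt. These 5 are described here among the 36528 genes listed for every library, with or without reads. They were taken as named genes, by their Entrez identifiers, and not by any measured value. The libraries came from tumours recorded as small intestine of genotype AKVPL, which all groups share, and polyA RNA was sequenced after a cell sort recorded as bulk, with EpCAM, an epithelial surface protein, in the sample names. Diphtheria toxin (DT), which serves in this design to kill cells that express Lgr5, was given to 1 arm and saline to the other. Cells were taken at 24, 48 or 96 h, and the groups DT 24 h, DT 48 h, DT 96 h, saline 24 h, saline 48 h and saline 96 h hold 4 libraries each, 24 in all. The composition of the genotype, the allele that makes Lgr5+ cells sensitive to the toxin, the age of the animals and the number of animals behind a library are stated in none of the labels. P-values therefore rest on the spread between libraries of a group, and that spread may be technical.

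The crypt of the small intestine is renewed by cycling stem cells at its base that express Lgr5, a receptor for R-spondins that strengthens Wnt signalling. A second, slowly dividing or injury-resistant pool, often placed just above the base, has been proposed to replace those cells when they are lost, and the 5 genes have each been used to mark or trace such cells. Later work in normal crypts found transcripts of several of these genes across much of the crypt, Lgr5+ cells included. The comparison asks whether their transcripts became more abundant once Lgr5+ cells had been depleted.

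The genes differ in what they make. Bmi1 is a subunit of Polycomb repressive complex 1 (PRC1) and holds the Cdkn2a locus silent. Hopx is a small homeodomain protein that does not bind DNA itself and acts through partners such as Srf and Hdac2. Tert is the catalytic subunit of telomerase. Lrig1 is a transmembrane protein that limits signalling by the ErbB receptors. Mex3a is an RNA-binding protein that marks a slowly cycling subset of Lgr5+ cells in the mouse crypt.

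In GRCm38.p6 Bmi1 (identifier 12151) lies at chr2:18677018-18686629, Hopx (74318) at chr5:77086986-77115123, Tert (21752) at chr13:73626911-73649843, Lrig1 (16206) at chr6:94604529-94700298 and Mex3a (72640) at chr3:88531946-88541394. All 5 are annotated as protein coding. Hopx overlaps its antisense gene Hopxos over 7772 bases, and Lrig1 overlaps Slc25a26 on the opposite strand over 144 bases. Whether counting used strand is not stated, so reads from either pair cannot be told apart with certainty. Hopxos itself held only 0.111 to 1.03 CPM (counts scaled to library size) and Slc25a26 11.3 to 16.3 CPM over the 24 libraries.

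The 250 bases before the annotated start of Tert and Mex3a are shown because these are the genes that fell at 24 h. The windows before both annotated starts of Hopx are shown because Hopx varied most between libraries of a group. Sequences are from RefSeq (GRCm38.p6), 5′ to 3′ on the gene's strand, with capitals on matches to the GC box GGGCGG, the CCAAT box CCAAT, the E-box CACGTG or the CArG box, on either strand. The windows are chr13:73626661-73626910 (plus strand) for Tert, chr3:88531696-88531945 (plus strand) for Mex3a, chr5:77115124-77115373 (minus strand) for the first Hopx start and chr5:77095268-77095517 (minus strand) for the second.
Tert: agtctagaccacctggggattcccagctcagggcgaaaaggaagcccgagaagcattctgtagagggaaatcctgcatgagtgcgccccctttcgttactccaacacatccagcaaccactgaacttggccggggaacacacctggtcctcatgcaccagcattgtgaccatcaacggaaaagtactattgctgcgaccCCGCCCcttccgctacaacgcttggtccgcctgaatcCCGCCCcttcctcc
Mex3a: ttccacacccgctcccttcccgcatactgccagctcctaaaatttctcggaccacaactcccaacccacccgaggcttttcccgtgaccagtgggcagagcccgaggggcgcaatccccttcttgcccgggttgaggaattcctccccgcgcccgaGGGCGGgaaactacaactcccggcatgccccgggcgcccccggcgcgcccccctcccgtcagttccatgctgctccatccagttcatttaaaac
Hopx, first start: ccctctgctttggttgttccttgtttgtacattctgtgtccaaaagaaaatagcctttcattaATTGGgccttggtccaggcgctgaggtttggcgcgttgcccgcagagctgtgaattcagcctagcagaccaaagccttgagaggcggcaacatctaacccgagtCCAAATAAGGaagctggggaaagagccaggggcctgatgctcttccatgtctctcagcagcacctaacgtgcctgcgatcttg
Hopx, second start: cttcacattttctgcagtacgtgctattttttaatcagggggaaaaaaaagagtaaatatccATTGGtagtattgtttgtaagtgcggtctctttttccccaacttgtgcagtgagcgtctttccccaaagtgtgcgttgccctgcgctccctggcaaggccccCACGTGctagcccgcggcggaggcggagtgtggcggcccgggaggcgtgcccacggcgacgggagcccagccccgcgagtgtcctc
Tert held 2 GC boxes and Mex3a 1, as did 32.7% of 32851 mouse promoter windows of this length at least once. GC boxes were also present in the windows of Bmi1 and Lrig1, which are not shown and were not called at 24 h. The Lrig1 window (chr6:94700146-94700395, minus strand) overlaps the annotated gene, which reaches base 94700298, so it lies only partly before the gene. Neither Hopx window held a GC box, and both held a CCAAT box, as did that of Lrig1 and 33.8% of all windows. The first Hopx window also held a CArG box, the motif of Srf, found in 1.47% of windows. The second held an E-box, found in 6.02%, as did the window of Bmi1. None of the windows of the 5 genes held the TCF/LEF letters CTTTGAT (3.21% of windows) or CTTTGTT (5.03%), or the STAT letters TTCNNNGAA (7.02%). A match describes letters in the window and shows no binding.

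Per unit of transcript length, Lrig1 was the most abundant of the 5 transcripts and Tert the least. On the authors' nRPKM scale, an RPKM adjusted by a size factor, the mean over 24 libraries was 39.1 for Lrig1, 19.96 for Hopx, 16.9 for Mex3a, 4.70 for Bmi1 and 2.23 for Tert, beside 27.6 for Lgr5. Lrig1 stood above 94.4% and Tert above 58.5% of the 29076 genes listed above 0. Hopx and Mex3a, neighbours in this order, overlapped in their spread (SD 6.39 and 2.66 nRPKM), and Hopx in its highest library (37.5 nRPKM, DT 24 h) exceeded Lrig1 in its lowest (33.4 nRPKM, DT 48 h). Mex3a in its lowest library (11.6 nRPKM) stood above Bmi1 in its highest (5.43 nRPKM), and Bmi1 in its lowest (3.32 nRPKM) above Tert in its highest (2.82 nRPKM). Counts per library were at least 140 for every one of the 5 genes, and Tert, at 140 to 381 counts, had the least depth behind it.

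Total counts per library, in units of 1e6, were 11.3 to 27.6 for DT 24 h, 10.9 to 27.7 for DT 48 h, 11.5 to 24.3 for DT 96 h, 13.1 to 14.6 for saline 24 h, 15.6 to 27.6 for saline 48 h and 14.4 to 24.2 for saline 96 h. Lgr5, the gene whose cells were targeted, stood at 77.0 to 84.9 CPM in the DT libraries at 24 h, against 179 to 217 CPM in saline. Its log2 fold change was -1.30 at 24 h, then -0.60 at 48 h and -0.43 at 96 h (edgeR adjusted p = 4.4e-08, 0.0027 and 0.0447), and the call at 96 h was lost whenever any 1 of the 8 libraries was left out (adjusted p = 0.0612 to 0.152). Replicate 3 of DT 48 h stood apart from its group, with 171 CPM of Lgr5 against 95.4, 117 and 98.7 in the other 3, and a score of 2.97 on the first principal component (28.4% of variance) against -30.9, -18.4 and -20.8. Members are therefore also given without it at 48 h. Epithelial markers were high throughout (6 genes, 5725 to 7367 CPM summed), and 15 of 15 genes of dividing cells rose at 24 h, where 19.9% of all genes did.

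Markers of cells outside the epithelium were present in all groups. The 8 fibroblast markers summed to 2899 to 6673 CPM in DT libraries at 24 h, against 3408 to 3999 CPM in saline. At 48 h they summed to 7030 to 11430 CPM in DT libraries, above the epithelial sum, against 3611 to 7305 CPM in saline, and at 96 h to 5382 to 9911 CPM in DT libraries against 2747 to 9684 CPM in saline. At 48 h the groups nearly separated, with a median of 8160 CPM in DT libraries and 6417 CPM in saline. The fibroblast median was above the epithelial one in saline at 48 h too (epithelial 6225 CPM). This was also so at 96 h in DT libraries (6541 against 6123 CPM) and in saline (7007 against 6012 CPM). The 5 endothelial markers summed to 279 to 316 CPM in DT libraries against 196 to 290 CPM in saline at 24 h, and the 7 macrophage and leukocyte markers to 193 to 441 CPM in DT libraries against 286 to 385 CPM in saline. At 48 h the endothelial sum was 282 to 409 CPM in DT libraries against 284 to 373 CPM in saline, and the macrophage sum 171 to 284 CPM in DT libraries against 173 to 365 CPM in saline. At 96 h the endothelial sum was 401 to 561 CPM in DT libraries against 317 to 561 CPM in saline, and the macrophage sum 147.5 to 174 CPM in DT libraries against 129.7 to 206 CPM in saline. The 7 T and NK cell markers summed to at most 1.499 CPM and the 3 B cell markers to at most 0.448 CPM in any library. Tests called 2 fibroblast, 1 endothelial and 0 macrophage markers higher at 24 h, and no such marker lower, where 19.9% of all genes were higher and 18.9% lower. At 48 h the endothelial receptor Tek was called higher (log2 0.54, edgeR adjusted p = 0.0354) and the leukocyte integrin Itgam lower (-0.98, 0.0437). Of all genes 4.83% were higher and 6.5% lower at that time. For fibroblasts 0 of 8 markers were called at 48 h, though their median log2 fold change was 0.56. At 96 h 0 markers of cells outside the epithelium were called, where 4.03% of all genes were. The part of these cells in the values below was not tested.

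None of the 5 genes passed the test as higher after DT at any time (by edgeR's quasi-likelihood test with Benjamini-Hochberg adjustment, and equally by DESeq2 and limma voom), and 2 passed it as lower, Mex3a and Tert at 24 h. At 24 h 38.7% of the 17468 genes tested were called, 19.9% higher and 18.9% lower, so a count of 2 lower of 5 is read beside a background near 1 in 5. At 48 h 0 of 5 were called in either direction, where 11.3% of all genes were (4.83% higher and 6.5% lower), and at 96 h 0 of 5, where 4.03% were (1.01% higher and 3.02% lower). At an unadjusted p under 0.05 Bmi1 was also lower at 24 and 48 h, and no other of the 5 genes at 48 or 96 h. The median log2 fold change of the 5 genes was -0.22 at 24 h, -0.15 at 48 h and -0.03 at 96 h, beside -0.0036, -0.0019 and -0.0059 over all genes tested. In these sorted cells a lower level can come from fewer cells of a type or from less RNA per cell, which cannot be told apart.

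**Figure D1:**
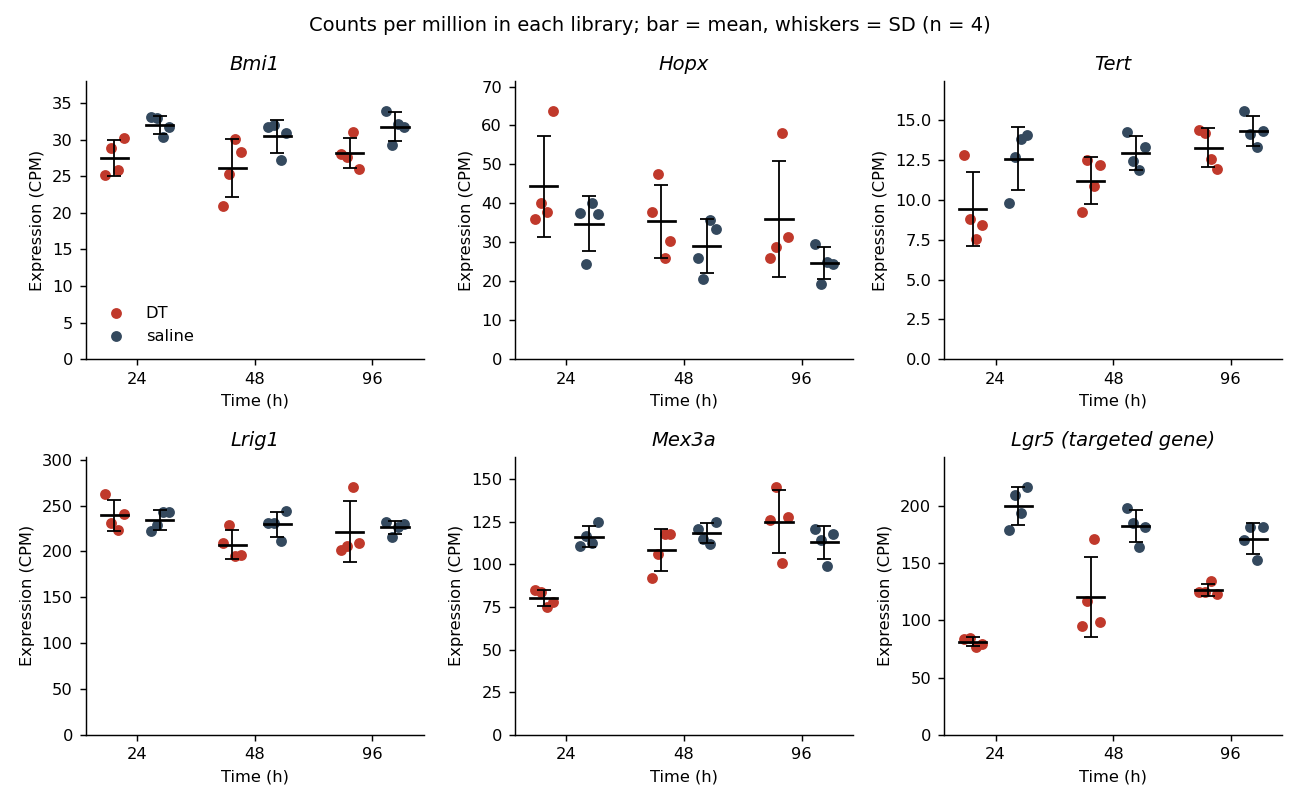
Expression of the 5 genes and of Lgr5 in CPM (vertical axes, each from 0) at 24, 48 and 96 h, with DT libraries in red left of saline libraries in blue; points are libraries, bars the mean and whiskers the SD of 4 libraries. Mex3a in DT libraries at 24 h sits between 75.0 and 84.7 CPM, below every saline library, while Hopx has 1 high DT library at 24 h (63.8 CPM) and 1 at 96 h (58.1 CPM).

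**Figure D2:**
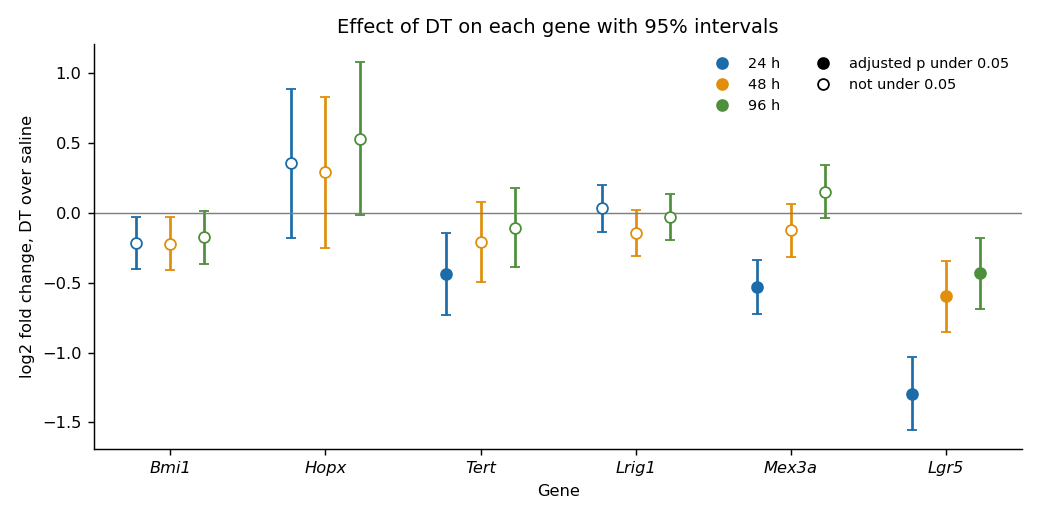
Log2 fold change of DT over saline (vertical axis) for each gene at 24, 48 and 96 h, with 95% intervals; filled points have an adjusted p under 0.05. Of the 5 genes, only Mex3a and Tert at 24 h are filled, both below 0, and the intervals of Hopx are the widest.

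Mex3a had the smallest adjusted p of the 5 genes at 24 h. It stood at 84.7, 83.9, 75.0 and 78.0 CPM in DT libraries at 24 h, against 111, 116, 113 and 125 CPM in saline libraries. Every DT library lay below every saline library, as was so for 16.2% of all genes tested. The DT level was 0.691 times that of saline, a log2 fold change of -0.53 ± 0.09 (SE; edgeR adjusted p = 6.3e-05). With any 1 of the 8 libraries left out the change was -0.57 to -0.49 and was called each time.

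By 48 h Mex3a was at 91.9, 106, 118 and 118 CPM in DT libraries, against 121, 115, 112 and 125 CPM in saline libraries. The groups overlapped, with replicate 1 of DT lowest, and the log2 fold change was -0.12 ± 0.09 (edgeR adjusted p = 0.403; 95% interval -0.31 to 0.06). Without DT replicate 3 it was -0.15, and without DT replicate 1 it was -0.05. At 96 h Mex3a was at 126, 146, 101 and 128 CPM in DT libraries, against 121, 114, 98.8 and 118 CPM in saline libraries. Here 3 of 4 DT libraries lay above all 4 saline libraries and DT replicate 3 among them, with a log2 fold change of 0.15 ± 0.09 that was not called (edgeR adjusted p = 0.483; 95% interval -0.04 to 0.34). It was 0.07 without DT replicate 2 and 0.26 without DT replicate 3.

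The effect of DT on Mex3a therefore differed between times. Its effect at 96 h was 0.68 ± 0.13 (log2) above that at 24 h (edgeR adjusted p = 0.0013), a test that called 11.9% of all genes, 4.08% with a higher effect at 96 h. The same difference between 48 and 24 h was 0.41 ± 0.13 and was not called (edgeR adjusted p = 0.0902), where 2.89% of all genes were. It was 0.48 and called without replicate 1 of DT 48 h (adjusted p = 0.0248). A test over all 3 times called Mex3a (edgeR adjusted p = 0.0045) where 7.97% of genes were called. Among DT libraries alone, Mex3a was higher at 96 h than at 24 h by 0.64 (edgeR adjusted p = 1.2e-05), where 37.5% of genes were called and 16.6% were higher. Each 96 h library lay above each 24 h library, as for 14.0% of genes. Among saline libraries the same difference was -0.04 (edgeR adjusted p = 0.867), and 0 of the 5 genes were called there, where 3.22% of all genes were. Of the 5 genes only Mex3a was called for a change of the DT effect among times, in a comparison of each gene with 0 and not with the other 4.

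The other Mex3 genes, which encode RNA-binding proteins of the same family, fell with it at 24 h in 2 of 3 cases, where 18.9% of all genes fell. Mex3d averaged 55.3 ± 4.33 CPM in DT libraries and 70.05 ± 3.64 CPM in saline libraries (SD, n = 4 each), a log2 fold change of -0.34 (edgeR adjusted p = 7.9e-05). Mex3b averaged 21.7 ± 1.96 CPM in DT libraries and 29.5 ± 2.42 CPM in saline libraries, a change of -0.44 (edgeR adjusted p = 2.8e-04). Mex3c had a change of -0.14 and was not called. At 48 and 96 h 0 of 3 were called in either direction, where 11.3% and 4.03% of all genes were. The change of the DT effect among times was called for Mex3b (edgeR adjusted p = 0.0468) and Mex3d (0.0426), as for 7.97% of all genes. Cdx2, an intestinal transcription factor whose translation human MEX3A represses, averaged 18.1 ± 5.10 CPM in DT libraries and 17.2 ± 5.32 CPM in saline libraries at 24 h and was not called at any time.

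Tert was the other gene called at 24 h. It stood at 12.9, 8.82, 7.58 and 8.46 CPM in DT libraries, against 9.79, 12.7, 13.8 and 14.1 CPM in saline libraries. The groups overlapped, since DT replicate 1 lay above saline replicates 1 and 2. The log2 fold change was -0.44 ± 0.14, 0.737 times the saline level (edgeR adjusted p = 0.0146). It was -0.34 and not called without DT replicate 3 (adjusted p = 0.0717), -0.62 without DT replicate 1 (4.5e-04), and -0.42 and not called when only the 8 libraries at 24 h were fitted (0.0839).

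At 48 h Tert was at 9.25, 12.5, 10.9 and 12.2 CPM in DT libraries, against 14.3, 12.4, 11.9 and 13.3 CPM in saline libraries. DT replicates 1 and 3 lay below all saline libraries, the other 2 among them, and the log2 fold change of -0.21 was not called (edgeR adjusted p = 0.337; -0.18 without DT replicate 3 and -0.13 without DT replicate 1). At 96 h it was at 14.4, 14.2, 12.6 and 11.9 CPM in DT libraries, against 15.6, 14.1, 13.3 and 14.4 CPM in saline libraries. These groups overlapped too, with a change of -0.11 (edgeR adjusted p = 0.804; 95% interval -0.39 to 0.17), or -0.06 without DT replicate 3, -0.04 without DT replicate 4 and -0.07 without saline replicate 1. DT libraries at 96 h were above those at 24 h by 0.52 (edgeR adjusted p = 0.0046), while the DT effect at 96 h exceeded that at 24 h by 0.33 ± 0.19, which was not called (adjusted p = 0.289). Without replicate 1 of DT 24 h that difference was 0.53 and called (0.0390).

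More genes that work with Tert rose than fell. Of 13 other telomerase and shelterin genes 7 rose and 1 fell at 24 h, where 19.9% of all genes were called higher and 18.9% lower. At 48 h 4 rose, where 4.83% of all genes did, and at 96 h 0 changed, where 4.03% did. Median log2 fold changes were 0.15, 0.12 and 0.04. Those that rose most include proteins that bind the telomerase RNA. Gar1 averaged 56.5 ± 5.25 CPM in DT libraries and 35.6 ± 1.22 CPM in saline libraries at 24 h (log2 0.67; edgeR adjusted p = 2.9e-07), and Dkc1, the pseudouridine synthase dyskerin, 78.9 ± 12.6 CPM in DT libraries and 52.2 ± 3.65 CPM in saline libraries (0.60; 8.7e-06). Both proteins, with Nop10 (0.54) and Nhp2 (0.60), also act on ribosomal RNA. Terf1, a shelterin protein that binds telomeric DNA, rose by 0.51 (edgeR adjusted p = 2.3e-06), and Pot1b, which binds its single strand, was the gene that fell (-0.37; 0.0252). The 15 genes of dividing cells had a median of 1.29 at 24 h, and their part in these values was not tested.

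Bmi1 was lower in DT than in saline libraries at each time by a similar amount, without passing the adjusted threshold. At 24 h it stood at 25.2, 28.8, 25.8 and 30.3 CPM in DT libraries, against 33.1, 32.9, 30.3 and 31.8 CPM in saline libraries. Each DT library lay below each saline library, as was so for 16.2% of all genes tested. The nearest pair stood at 30.26 and 30.33 CPM, and the log2 fold change was -0.22 ± 0.09 (edgeR adjusted p = 0.0608, 95% interval -0.41 to -0.03). It was called without DT replicate 4 (-0.27, adjusted p = 0.0309) or without saline replicate 3 (adjusted p = 0.0430), and in no other setting.

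At 48 h Bmi1 was at 21.0, 25.2, 30.1 and 28.3 CPM in DT libraries, against 31.8, 32.0, 27.2 and 31.0 CPM in saline libraries. DT replicates 3 and 4 overlapped with saline replicate 3, and the change of -0.22 ± 0.09 was not called (edgeR adjusted p = 0.117). Without DT replicate 3, the library in which Lgr5 was near saline levels, it was -0.28 and called (adjusted p = 0.0487), and without DT replicate 1 it was -0.13. At 96 h Bmi1 was at 28.1, 27.7, 31.0 and 25.9 CPM in DT libraries, against 34.0, 29.2, 32.2 and 31.8 CPM in saline libraries. Only DT replicate 3 reached the saline range there, and the change was -0.18 ± 0.09 (edgeR adjusted p = 0.354; 95% interval -0.37 to 0.01). The DT effect on Bmi1 at 96 h differed from that at 24 h by 0.04 ± 0.13 (adjusted p = 0.883).

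Other PRC1 genes moved in both directions at 24 h, at a share near that of all genes. Of 16 genes, 15 PRC1 subunits and Cdkn2a, 2 rose and 5 fell at 24 h, where 38.7% of all genes were called. At 48 h 0 rose and 2 fell (11.3% of all genes), and at 96 h 0 rose and 1 fell (4.03%), with medians of -0.12, -0.11 and -0.02 at the 3 times. Pcgf1, a paralogue of Bmi1 in other PRC1 complexes, fell at all 3 times, with log2 fold changes of -0.66, -0.44 and -0.62 (adjusted p = 1.6e-04, 0.0202 and 0.0040), and Pcgf6, another paralogue, rose by 0.31 at 24 h (0.0015). Cdkn2a, the cell cycle inhibitor locus that Bmi1 represses, averaged 205 ± 36.9 CPM in DT libraries and 188 ± 16.5 CPM in saline libraries at 24 h and was not called at any time.

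Hopx had a higher mean in DT than in saline libraries at each time, never called, and the largest spread within groups. At 24 h it stood at 35.9, 39.99, 37.9 and 63.8 CPM in DT libraries, against 37.5, 24.5, 40.1 and 37.2 CPM in saline libraries. Apart from DT replicate 4 and saline replicate 2 the libraries of both groups lay together, and the log2 fold change was 0.35 ± 0.26 (edgeR adjusted p = 0.295; 95% interval -0.18 to 0.89). Without DT replicate 4 it was 0.12, and without saline replicate 2 it was 0.20.

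By 48 h Hopx was at 37.7, 47.5, 26.0 and 30.3 CPM in DT libraries, against 26.0, 20.7, 35.8 and 33.5 CPM in saline libraries. The groups overlapped, with a change of 0.29 ± 0.26 (edgeR adjusted p = 0.514), or 0.42 without DT replicate 3. It was 0.14 without DT replicate 2 and 0.15 without saline replicate 2. At 96 h Hopx was at 26.0, 28.8, 58.1 and 31.3 CPM in DT libraries, against 29.4, 19.4, 24.9 and 24.4 CPM in saline libraries. The groups overlapped again, the change was 0.53 ± 0.26 (edgeR adjusted p = 0.335; 95% interval -0.02 to 1.07), and it was 0.24 without DT replicate 3. An increase of Hopx was thus not detected. The intervals leave room for a rise of up to 1.07 on the log2 scale, so its absence is not shown.

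Within groups Hopx varied by a coefficient of variation of 16.7% to 41.2%, against 3.26% to 14.9% for Lrig1. The 2 libraries highest in Hopx were also those highest in transcripts of enteroendocrine cells, the hormone-secreting cells of the epithelium. This was looked for after Ddc, Sct and Scg2, which serve hormone or amine production in such cells, had come out as the genes most like Hopx over the 24 libraries (Pearson r of log2 CPM 0.90, 0.88 and 0.87 among 13576 genes). Summed over 15 enteroendocrine genes picked after these values were seen, DT replicate 4 at 24 h had 704 CPM against 248 to 380 in the other 3 DT libraries, and DT replicate 3 at 96 h had 679 CPM against 199 to 255. The library next in Hopx, DT replicate 2 at 48 h with 47.5 CPM, had a sum of 274 CPM, below saline replicates 1 and 3 at 24 h (423 and 421 CPM), whose Hopx was lower. The list holds Ddc, Sct and Scg2, and its sum is mostly Chgb and Chga (up to 444 and 148 CPM in a library), so no correlation with it is given. The part of enteroendocrine transcripts in the Hopx values was not tested.

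**Figure D3:**
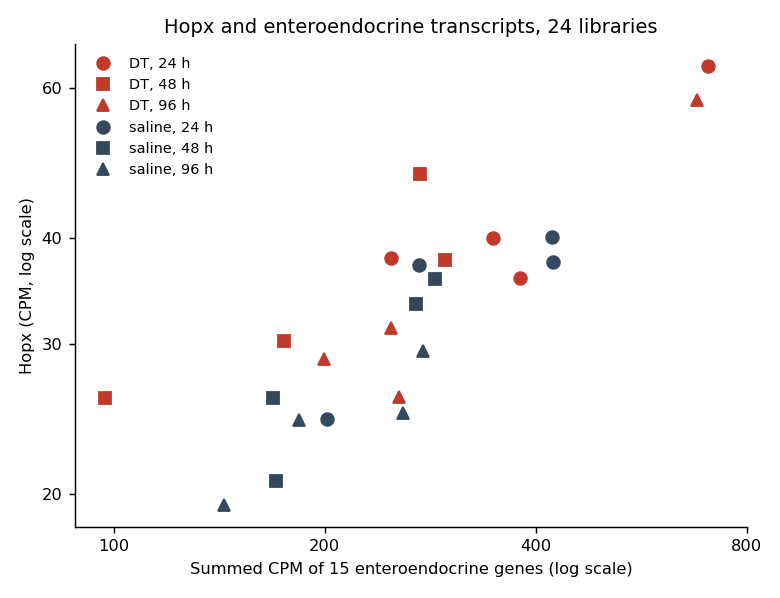
Hopx (vertical axis, CPM) against the summed CPM of 15 enteroendocrine genes (horizontal axis) on log scales, 1 point for each of 24 libraries, red for DT and blue for saline, with a shape for each time. The 2 libraries with the highest Hopx, 63.8 and 58.1 CPM, are also those with the highest sums, 704 and 679 CPM, while the library next in Hopx (47.5 CPM) has a sum of 274 CPM.

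The protein partners of Hopx were not called at any time. Hdac2, a histone deacetylase, averaged 156 ± 8.17 CPM in DT libraries and 143 ± 10.3 CPM in saline libraries at 24 h (log2 0.12), and Srf, a transcription factor of growth and muscle genes, 136 ± 13.3 CPM in DT libraries and 154 ± 20.1 CPM in saline libraries (-0.18). With Epc1, 0 of 3 passed in either direction at each time, where 38.7%, 11.3% and 4.03% of all genes did at 24, 48 and 96 h.

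Lrig1, the most abundant of the 5, was not called at any time. At 24 h it stood at 262, 231, 224 and 241 CPM in DT libraries, against 222, 229, 243 and 243 CPM in saline libraries. The groups lay on top of each other, with a log2 fold change of 0.03 ± 0.08 (edgeR adjusted p = 0.791) and a 95% interval of -0.14 to 0.20. Its sign turned when replicate 1 of either group was left out (-0.03 without that of DT, -0.01 without that of saline).

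At 48 h Lrig1 was at 210, 229, 195 and 196 CPM in DT libraries, against 231, 232, 211 and 244 CPM in saline libraries. Here 3 of 4 DT libraries lay below all saline libraries, with a change of -0.15 ± 0.08 that was not called (edgeR adjusted p = 0.246; -0.10 without DT replicate 3). At 96 h it was at 201, 205.5, 271 and 209 CPM in DT libraries, against 233, 216, 227 and 230.0 CPM in saline libraries. DT replicates 1, 2 and 4 lay below all 4 saline libraries and DT replicate 3 above them, and the change was -0.03 ± 0.08 (edgeR adjusted p = 0.919). Without DT replicate 3 it was -0.12 (edgeR adjusted p = 0.457). Lrig1 was then called lower in DT libraries at 96 h than at 24 h (log2 -0.19, edgeR adjusted p = 0.0272), as was Hopx (-0.60, 0.0476). That library was singled out by its high values of these same genes, so the calls made without it are no separate result. With all libraries neither gene was called in that comparison, where 37.5% of all genes were.

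Receptors and ligands of the pathway that Lrig1 limits were called about as often as genes at large at 24 h. Of 13 tested genes of the LRIG and ErbB families and their ligands 1 rose and 4 fell at 24 h, where 38.7% of all genes were called, 0 rose and 2 fell at 48 h (11.3% of all genes), and 0 rose and 1 fell at 96 h (4.03%), with medians of -0.05, -0.11 and -0.15. The ligand Tgfa fell at all 3 times, to 90.8 ± 3.18 CPM in DT libraries at 24 h, against 126 ± 6.44 CPM in saline libraries (-0.47, -0.37 and -0.32 at 24, 48 and 96 h; edgeR adjusted p = 2.3e-04, 0.0099 and 0.0467). Hbegf (-0.47) and Areg (-0.41), also ErbB ligands, and the receptor Erbb3 (-0.26) fell at 24 h. Epgn, a further ligand, was the gene called higher, at 1.02 ± 0.371 CPM in DT libraries and 0.516 ± 0.184 CPM in saline libraries. Egfr and the paralogues Lrig2 and Lrig3 were not called at any time.

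The levels of the 5 genes were also set beside that of Lgr5 in the same library. At 24 h the Mex3a to Lgr5 ratio of CPM was 0.973 to 1.01 in DT libraries, against 0.556 to 0.620 in saline libraries, and the Hopx to Lgr5 ratio was 0.427 to 0.801 in DT libraries, against 0.117 to 0.209 in saline libraries. Lgr5 itself fell without overlap of the groups at this time, so the ratio to Lgr5 of any gene that fell less stands higher after DT. The ratios are given as a description, with no test.

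Among themselves the 5 genes did not move as 1 block. Over the 24 libraries Tert and Mex3a had the highest r of the pairs (Pearson r of log2 CPM 0.755, Spearman rho 0.638) and Hopx and Mex3a the lowest (r = -0.53). Within groups, with treatment and time taken out, r was 0.53 for Tert and Mex3a and was highest for Hopx and Lrig1 (0.60, against 0.45 over all libraries). Replicate 3 of DT 96 h stood far above its group in both Hopx (58.1 CPM) and Lrig1 (271 CPM), and r without it was not computed. With Lgr5 the r was 0.70 for Mex3a, 0.66 for Bmi1, 0.64 for Tert, 0.06 for Lrig1 and -0.50 for Hopx. Within groups these were 0.37, 0.50, 0.28, 0.10 and -0.25, so that Bmi1 and not Mex3a came first. By Spearman rho Bmi1 came first over all 24 libraries too (0.70, against 0.53 for Mex3a and 0.53 for Tert). Replicate 3 of DT 48 h was highest of its group in Lgr5 (171 CPM), Bmi1 (30.1 CPM) and, narrowly, Mex3a (117.7 CPM, against 117.5 CPM in replicate 4). Its part in this order was not tested. The points share libraries, treatment and time, so these are descriptions. Genes most like each of the others by the same measure included Sntb1, Arhgap5 and Kbtbd7 for Bmi1 (r = 0.88, 0.87 and 0.87), Slc15a2 and Slc25a27 for Tert (0.94 and 0.93), Fbxo43, Ptprn2 and Eps8 for Lrig1 (0.75, 0.73 and 0.73) and Adgrl1, Brd3 and Ptprs for Mex3a (0.93, 0.90 and 0.90).

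Further genes linked to stem or precursor cells of the crypt moved in both directions. Of 10 tested, 3 rose and 5 fell at 24 h, where 19.9% of all genes rose and 18.9% fell. At 48 h 1 rose and 2 fell (4.83% and 6.5% of all genes), and at 96 h 0 changed (4.03%), with medians of -0.22, -0.03 and 0.02 at the 3 times. Dll1, a Notch ligand that marks secretory precursors able to regain stem cell function, averaged 14.3 ± 1.02 CPM in DT libraries and 7.08 ± 0.757 CPM in saline libraries at 24 h (log2 1.01; edgeR adjusted p = 8.0e-07), and rose by 0.65 at 48 h (0.0012). The keratins Krt15 (1.17) and Krt19 (0.43), both used to trace long-lived crypt cells, rose at 24 h. Prox1, a marker of endocrine and tuft lineage cells, averaged 433 ± 82.9 CPM in DT libraries and 879 ± 37.4 CPM in saline libraries (-1.02; edgeR adjusted p = 2.5e-05). Clu, which marks revival stem cells after injury, fell by 0.39 on the log2 scale at 24 h, and the tuft cell kinase Dclk1 fell by 0.56. Sox9 and Msi1, expressed in crypt base and precursor cells, were not called at any time.

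Most genes of a list for crypt base stem cells, which also holds Wnt feedback genes, fell at 24 h. Of 17, Lgr5 included, 1 rose (Cdca7, log2 0.31) and 10 fell at 24 h, where 19.9% of all genes rose and 18.9% fell. Those that fell include the Wnt feedback genes Nkd1, Notum, Axin2, Rnf43 and Znrf3. Olfm4 fell too, at only 0.211 CPM in DT and 0.929 CPM in saline libraries. Ascl2 (log2 0.07), Ephb2, Ephb3, Cd44, Slc12a2 and Sp5 were not called at 24 h. At 48 h 1 rose and 7 fell (4.83% and 6.5% of all genes), and at 96 h 0 rose and 5 fell (1.01% and 3.02%). Medians were -0.43, -0.23 and -0.15 at the 3 times. Among 6 inhibitors of the cell cycle, whose products keep cells out of division, 0 rose and 3 fell at 24 h (18.9% of all genes fell). At 48 h 0 rose and 2 fell (6.5% of all genes fell), and at 96 h 0 changed (4.03% did), with medians of -0.25, -0.21 and -0.12 at the 3 times. Cdkn1c, a Cdk inhibitor of quiescent stem cells, averaged 36.7 ± 5.96 CPM in DT libraries and 87.0 ± 6.14 CPM in saline libraries at 24 h (-1.24; edgeR adjusted p = 6.5e-09), Rbl2 changed by -0.40 and Cdkn1a by -0.41. Of the 15 dividing cell genes, 12 rose at 48 h and 7 at 96 h, with medians of 0.46 and 0.40, where 4.83% and 1.01% of all genes rose.

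**Figure D4:**
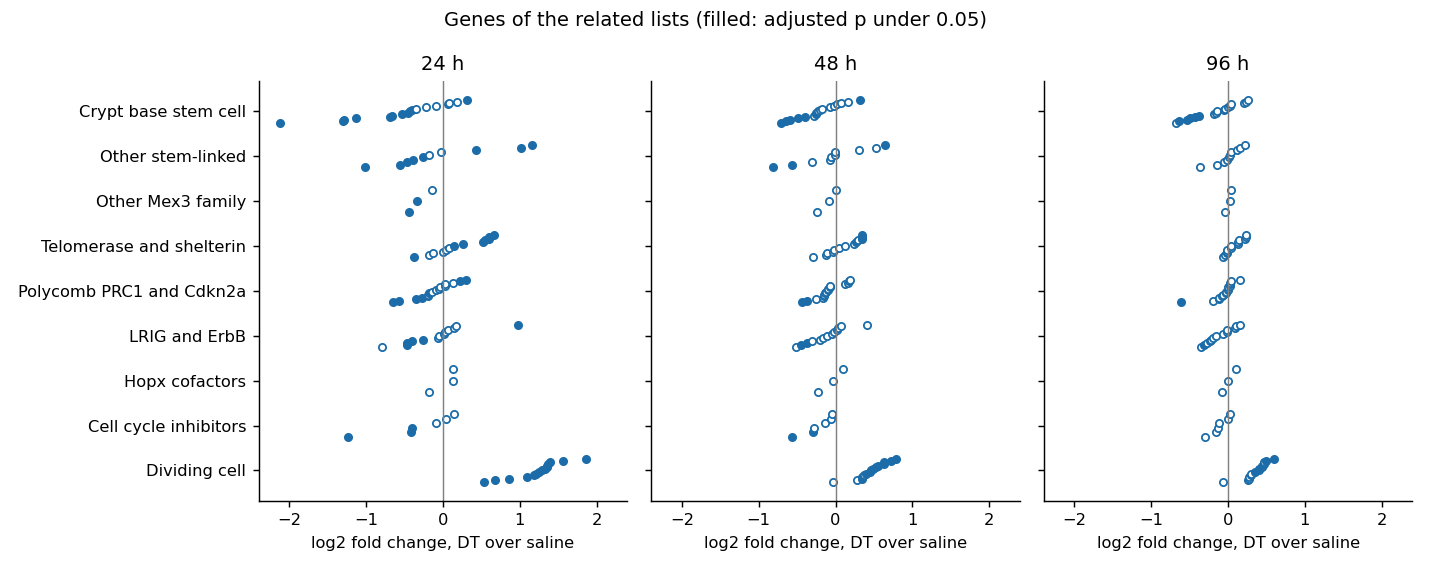
Log2 fold change of DT over saline (horizontal axes) at 24, 48 and 96 h for the genes of 9 related lists, 1 point a gene, filled where the adjusted p was under 0.05. At 24 h all 15 dividing cell genes lie right of 0 and most crypt base genes left of it, and by 96 h most points are open and near 0.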

How the data were processed

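Per the labels' protocols, RNA of sorted cells was extracted with the RNeasy Micro kit, and polyA RNA was sequenced. Per the file headers, each table the authors deposited holds a count for each gene (uniquely aligned reads) and an nRPKM, which is an RPKM with a size factor applied. GSNAP and GRCm38 are named in the submitters' processing notes, while versions, annotation and strand setting are not stated there. Counts were used as deposited, and the deposited RPKM values only to compare levels between genes and to recover the authors' size factors. Of the identifiers 85.0% matched RefSeq (GRCm38.p6) and took its symbols; the others held at most 1.52% of a library's counts and stayed in.

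All 24 libraries entered 1 fit of edgeR 4.0.16 (R 4.3.3) with a mean per group, TMM scaling, the filter on low counts by group (17468 genes left, all 5 genes included) and the robust quasi-likelihood test, two-sided, with Benjamini-Hochberg adjustment over all genes and a threshold of 0.05. CPM use TMM library sizes. Standard errors are the size of the log2 fold change over the square root of F. The test was checked on simulated counts. Replicates of a group all differed by more than sampling noise (smallest chi-square per degree of freedom 4.24). Groups were formed from the labels. Alternatives were median-of-ratios, upper quartile and the authors' scaling, no filter or at least 1 CPM in 4 libraries, DESeq2 1.42.0, limma voom 3.58.1, a replicate block, the libraries compared alone and each library left out. Of each related gene list the rule named the 4 genes with the smallest p at 24 h; those printed are part of these, with others chosen after their values were seen. For each of the 5 genes the 3 genes with the highest Pearson r were selected, among genes averaging 1 CPM or more. A few genes that these rules select are not reported here. The 5 genes and the lists were chosen with earlier results of these data known, the enteroendocrine list after its values were seen. With 4 libraries a group, the SE of a log2 fold change was near 0.08 for Lrig1 and 0.26 for Hopx.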

Additional observations from a re-analysis of the deposited data

Results flagged for a closer look

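In 3 groups of 4 libraries 1 library stood far from the other 3, by Dixon's criterion, which chance meets in about 1 in 20 groups; 36 groups of the 5 genes and Lgr5 were searched. Hopx reached 63.8 CPM in replicate 4 of DT 24 h, against 35.9 to 39.99 CPM in the other 3. In replicate 3 of DT 96 h Hopx reached 58.1 CPM, against 26.0 to 31.3 CPM, and in the same library Lrig1 reached 271 CPM, against 201 to 209 CPM.

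The effect of DT differed between times, by an interaction test in edgeR, for 1 of the 5 genes and for Lgr5. For Mex3a the effect at 96 h was 0.68 above that at 24 h on the log2 scale (adjusted p = 0.0013). For Lgr5 the effect was 0.70 above that at 24 h by 48 h (adjusted p = 0.0273; not called with replicate 3 of DT 24 h, 2 or 4 of saline 24 h or 3 of saline 48 h left out, 0.0549 to 0.0711) and 0.86 above it by 96 h (adjusted p = 0.0023).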

How the results depend on the processing

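For DT against saline, Mex3a at 24 h kept its direction and call under all alternatives run. The call of Tert at 24 h was lost with the 8 libraries compared alone (-0.42, adjusted p = 0.0839), and its log2 fold change ran over -0.62 to -0.34 with a library left out. With a library left out, Bmi1 ran over -0.27 to -0.18 at 24 h and -0.28 to -0.13 at 48 h, and Lrig1, whose sign turned, over -0.031 to 0.069 at 24 h and -0.12 to 0.016 at 96 h. Hopx ran over 0.12 to 0.43 at 24 h, 0.14 to 0.42 at 48 h and 0.24 to 0.66 at 96 h, Mex3a over -0.17 to -0.051 at 48 h and 0.068 to 0.26 at 96 h, and Tert over -0.26 to -0.13 at 48 h and -0.15 to -0.04 at 96 h, never called. For the effect at 48 h minus that at 24 h the range was -0.058 to 0.087 for Bmi1, -0.20 to 0.16 for Hopx, 0.37 to 0.48 for Mex3a and 0.51 to 0.79 for Lgr5. For 96 h minus 24 h it was -0.00075 to 0.11 for Bmi1, -0.092 to 0.40 for Hopx, 0.23 to 0.53 for Tert and -0.13 to 0.024 for Lrig1. Saline at 96 h against 24 h gave -0.058 to 0.027 for Bmi1 and -0.078 to 0.0091 for Mex3a, and DT at 96 h against 24 h -0.0053 to 0.088 for Bmi1. The cause was not tested.

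Calls over all genes for saline at 96 h against 24 h were 563, but 321 with no filter, 978 by DESeq2, 234 by limma voom, 322 with the libraries compared alone and 91 to 1218 with a library left out. Calls for 48 h minus 24 h were 505, but 772 by DESeq2 and 272 to 865 with a library left out. DT against saline gave 1979 at 48 h, but 945 with the libraries compared alone and 1154 to 2741 with a library left out, and 704 at 96 h, 359 to 680 with a library left out. The test over all times gave 1392, 840 to 2070 with a library left out. Lgr5 at 96 h lost its call with median-of-ratios, upper quartile or the authors' scaling (adjusted p = 0.0570, 0.0584 and 0.0545) and with no filter (0.0655), and at 48 h with the libraries compared alone (0.0663).

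Libraries of DT and saline with the same replicate number shared only a number: deviations of same-numbered pairs correlated by -0.356 to 0.13. With a replicate block Mex3a at 24 h was -0.53 (adjusted p = 6.4e-05), Tert -0.45 (0.0190) and Bmi1 -0.22 (0.0791), so no call of the 5 genes changed, while Lgr5 lost its call at 96 h (0.0665) and for 48 h minus 24 h (0.0506). Depth limits Tert most, at 140 to 381 counts a library.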
